A study of Homo sapiens with 6 samples.

Results

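The 9 genes described here encode ligands and enzymes by which a tumor cell can restrain immune cells: CD274, PDCD1LG2, CD276, VTCN1, CD47, PVR, NT5E, LGALS9 and ENTPD1. They were chosen by gene symbol, and each has a row of its own among the 56303 genes of the deposited count table. All 9 were among the 21298 genes that passed a filter on low counts and were tested.

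The study examined FBXL6, an F-box protein of a ubiquitin ligase complex, in bladder cancer (BLCA), and sequenced RNA to look for what lies downstream of it. The cells were T24, an established line derived from a bladder carcinoma. In 3 libraries the cells had received the control siRNA (siNC), with a genotype given as WT, and in 3 they had received siFBXL6, with a genotype given as FBXL6 knockdown. All 6 were collected 48 h after transfection and carry the same batch label. The comparison therefore asks how transcript levels in siFBXL6-transfected cells differed from those in siNC-transfected cells of a single line. Library totals were 58646515, 60967902 and 56814946 counts for siNC replicates 1 to 3, and 60968158, 60898556 and 60754015 counts for siFBXL6 replicates 1 to 3. The study's methods speak of independent replicates in general, but no source used here says whether the 3 libraries of a group came from separate cultures, so p-values measure only the spread between these samples, which may be technical. The numbers in the labels were read as replicates. The study also numbers its siRNAs against FBXL6 in the form used in these labels, so a number could instead name an siRNA. The spread among siFBXL6 libraries could then include a difference between siRNAs. The study's methods describe a single control siRNA and more than one against FBXL6, and which of the latter each siFBXL6 library received is not given in the sources used here. Libraries of the same group were nonetheless not copies of each other: their counts differed by a chi-square per degree of freedom of 2.76 to 5.80, and those of different groups by 44.5 to 48.

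Immune checkpoint ligands are proteins on or near the surface of a cell that engage inhibitory receptors on T cells, natural killer cells or macrophages. CD274 (PD-L1) and PDCD1LG2 (PD-L2) bind PD-1 on T cells, and antibodies that block PD-1 or PD-L1 are used to treat urothelial cancer. A parallel route runs through nucleotides: ENTPD1 (CD39) breaks extracellular ATP down to AMP, and NT5E (CD73) turns AMP into adenosine, which dampens T cells through its receptors.

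The labelled target came first. FBXL6 had 362, 414 and 398 counts in the libraries labelled siNC and 398, 344 and 350 counts in the libraries labelled siFBXL6. The groups overlapped, with siFBXL6 replicate 1 as high as siNC replicate 3 by raw count. In CPM, counts scaled to one common library total with TMM factors, FBXL6 was at 6.61 ± 0.380 and 6.03 ± 0.483 CPM (mean ± SD, n = 3, siNC first here and throughout). Its log2 fold change was -0.13 (SE 0.0896), with an adjusted p of 0.255 from edgeR's quasi-likelihood test with Benjamini-Hochberg adjustment over all genes tested, called the edgeR adjusted p below. FBXL6 transcript thus did not set the groups apart, and every direction below is that between libraries labelled siFBXL6 and libraries labelled siNC. ACTB, a cytoskeletal reference gene, was at 1168 ± 24.5 and 1168 ± 25.8 CPM, with a log2 fold change of 0.00 (edgeR adjusted p = 0.996).

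In the libraries labelled siFBXL6, transcripts of both PD-1 ligands were more than 2-fold higher, NT5E was higher by 38.6%, CD47, PVR and CD276 were slightly higher, LGALS9 and ENTPD1 were lower, and VTCN1 was barely detected in either group. At an edgeR adjusted p under 0.05, 8 of the 9 members were called, 6 higher and 2 lower. Of all genes tested, 40.5% were called, 20.6% higher and 19.9% lower, so a call by itself was common in this comparison. Calls at least 2-fold higher were rare, at 1.77% of genes tested, and 2 members were among them. The libraries of the 2 groups did not overlap for 8 members, beside 48.2% of all genes tested. The median log2 fold change was 0.12 over the members and -0.01 over all genes tested. Nothing is read from these counts about the members as a set, since they were chosen with results of these data known. These are bulk libraries, in which fewer cells of a type and less RNA per cell cannot be told apart.

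CD274 encodes the main ligand of PD-1 on tumor cells. The libraries labelled siNC held 1778, 1859 and 1741 CD274 counts, and those labelled siFBXL6 held 4211, 4311 and 4230. Every siFBXL6 library was above every siNC library, and the libraries within a group lay close together. In normalized terms CD274 went from 30.3 ± 0.160 to 70.4 ± 0.890 CPM, a log2 fold change of 1.22 (SE 0.0368, 95% interval 1.14 to 1.29, edgeR adjusted p = 2.75e-30). It ranked 28 by p among the 21298 genes tested and 256 from the top by log2 fold change. An exact two-sided permutation test of its CPM gave p = 0.1, the smallest value that 3 against 3 libraries can give, and the same p was found for each of the 8 members whose groups did not overlap.

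PDCD1LG2 encodes the other PD-1 ligand, best known from macrophages and dendritic cells. It had 46, 49 and 51 counts in the siNC libraries and 118, 154 and 152 counts in the siFBXL6 libraries. All siFBXL6 libraries were higher, replicate 1 less so than the other pair. Its level went from 0.823 ± 0.0568 to 2.34 ± 0.338 CPM, with a log2 fold change of 1.51 (SE 0.179, 95% interval 1.15 to 1.87, edgeR adjusted p = 1.25e-09). The wide interval goes with the low counts, and it overlaps that of CD274. The ratio of CD274 to PDCD1LG2, both in TPM (a scale that corrects for exon length as well as library size), was 21.2 ± 1.40 in the libraries labelled siNC and 17.6 ± 2.58 in those labelled siFBXL6 (exact permutation p = 0.2). CD274 remained the far more abundant PD-1 ligand in each group.

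**Figure D1:**
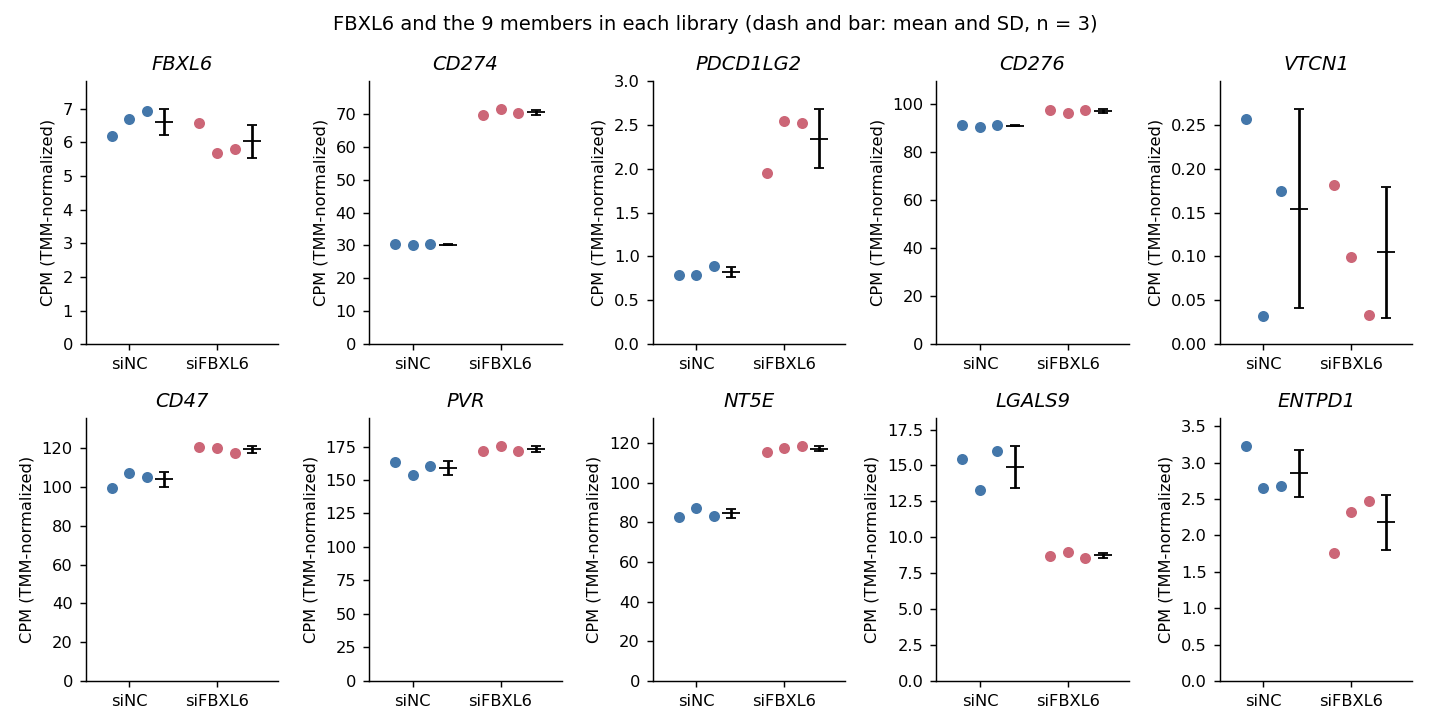
Each panel plots TMM-normalized CPM (linear axis from 0) of FBXL6 or a member in the 3 siNC libraries (blue) and the 3 siFBXL6 libraries (red), with the mean and SD beside them. The groups overlap for FBXL6 and VTCN1, and CD274 goes from 30.3 to 70.4 CPM with little spread within a group.

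The CD274 promoter is shown because CD274 had the smallest p among the members. It is RefSeq's window in GRCh38.p14, chr9:5450292-5450591 on the plus strand, from 250 bases before the start site to 50 bases after it. Capitals mark matches to the motifs searched, on either strand.
CD274: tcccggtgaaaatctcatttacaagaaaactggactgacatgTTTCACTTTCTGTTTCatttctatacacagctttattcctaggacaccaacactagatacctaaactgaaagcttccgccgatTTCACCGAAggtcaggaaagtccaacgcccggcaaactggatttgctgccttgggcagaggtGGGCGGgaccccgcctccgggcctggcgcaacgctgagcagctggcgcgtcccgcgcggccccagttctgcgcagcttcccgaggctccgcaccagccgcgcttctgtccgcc
The capitals are, from the left, a pair of overlapping matches to the ISRE-like motif (GAAA, any 2 bases, then GAAA) read on the opposite strand (TTTCACTTTC at position -208 and TTTCTGTTTC at -202 relative to the start site), a match to the GAS motif TTCNNNGAA (TTCACCGAA at -125) and a GC box (GGGCGG at -63). ISRE and GAS elements are the sequences that interferon-activated factors are known to bind. Of the 35116 promoter windows of the same length, 3.57% hold the ISRE-like motif, 7.66% the GAS motif and 45.0% a GC box. The other motifs searched, none of which matched here, were AP-1 (TGANTCA, in 7.71% of windows), the core of the hypoxia response element (ACGTG, in 21.4%), the TATA box (TATAAA, in 11.5%) and the NF-kB motif (in 7.73%). These matches describe the letters of the window and show no binding.

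CD276 (B7-H3) and VTCN1 (B7-H4) are further members of the B7 family that restrain T cells through receptors that are less well defined. CD276 had 5349, 5604 and 5237 counts in the libraries labelled siNC and 5913, 5823 and 5872 in those labelled siFBXL6. The groups did not overlap, but the step was small. CD276 went from 91.1 ± 0.378 to 97.2 ± 0.712 CPM, with a log2 fold change of 0.09 (SE 0.0301, edgeR adjusted p = 0.0106), less than the median size of 0.28 among called genes. VTCN1 had 15, 2 and 10 counts in the siNC libraries and 11, 6 and 2 in the siFBXL6 libraries. The groups overlapped fully, and single libraries ranged from 2 to 15 counts. Its log2 fold change of -0.53 had a 95% interval of -1.80 to 0.73 (edgeR adjusted p = 0.537), so neither a rise nor a fall was detectable at this depth.

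Of 10 other B7 and butyrophilin-like ligands, 7 could be tested and 3 were called, 2 higher and 1 lower, with a median log2 fold change of 0.07. The most abundant per length was BTN2A1, at 44.0 ± 0.830 and 48.5 ± 0.435 TPM and with a log2 fold change of 0.14 (edgeR adjusted p = 0.000690). NCR3LG1 (B7-H6), a ligand that activates natural killer cells, rose from 4.41 ± 0.391 to 6.42 ± 0.499 CPM, a log2 fold change of 0.54 (edgeR adjusted p = 1.02e-05). The costimulatory ligand CD86, named here after its values were seen, was at 0.168 ± 0.0552 and 0.210 ± 0.0188 CPM, CD80 fell below the filter, and BTNL2 had no count in any library. Of the B7 and butyrophilin-like ligands tested, members included, CD274 and PDCD1LG2 were the ones called more than 2-fold higher.

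CD47 signals to macrophages not to engulf the cell, through SIRPA. It had 5830, 6615 and 6027 counts in the libraries labelled siNC and 7297, 7253 and 7077 in those labelled siFBXL6. Each siFBXL6 library was above each siNC library, and siNC replicate 2 was the nearest of its group to them. CD47 went from 104 ± 3.81 to 119 ± 1.73 CPM, a log2 fold change of 0.20 (SE 0.0313, edgeR adjusted p = 7.18e-07).

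PVR (CD155) is the adhesion protein that engages the inhibitory receptors TIGIT and CD96 and the activating receptor CD226. It had 9540, 9483 and 9199 counts in the libraries labelled siNC and 10397, 10596 and 10366 in those labelled siFBXL6. The siFBXL6 libraries were all higher, by a small margin. PVR went from 159 ± 4.93 to 173 ± 2.01 CPM, a log2 fold change of 0.12 (SE 0.0303, edgeR adjusted p = 0.000817). Of its exon bases, 3.44% are shared with CEACAM19 on the same strand, a gene of at most 462 counts in a library.

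Among 8 genes that act with CD47 or PVR, all were tested and 5 were called, 3 higher and 2 lower. CALR, which on dying cells acts as a signal for engulfment, was the most abundant per length and went from 1175 ± 51.4 to 1038 ± 22.6 TPM (log2 fold change -0.18, edgeR adjusted p = 1.57e-06). QPCT, which encodes a glutaminyl cyclase, went from 6.75 ± 0.172 to 10.1 ± 1.07 CPM (log2 fold change 0.58, edgeR adjusted p = 6.32e-08). The integrin subunit gene ITGB3 went from 1.38 ± 0.128 to 1.98 ± 0.149 CPM (log2 fold change 0.53, edgeR adjusted p = 0.00780). THBS1, a secreted ligand of CD47 singled out after its values were seen, rose from 198 ± 3.15 to 254 ± 4.94 CPM (log2 fold change 0.36, edgeR adjusted p = 2.05e-14).

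The other nectins and nectin-like molecules are relatives of PVR. Of 8 genes, 6 were tested and 4 were called, all 4 lower, and the median log2 fold change was -0.21. NECTIN2, which binds TIGIT, CD226 and PVRIG, was the most abundant per length at 67.7 ± 3.57 and 59.5 ± 1.05 TPM, and its log2 fold change was -0.19 (edgeR adjusted p = 1.18e-05). NECTIN4, the target of an antibody-drug conjugate used in urothelial cancer, had 1184, 1260 and 1104 counts in the libraries labelled siNC and 709, 764 and 639 in those labelled siFBXL6. No library of one group reached the other. NECTIN4 went from 20.0 ± 0.636 to 11.7 ± 1.03 CPM, a log2 fold change of -0.78 (SE 0.0620, edgeR adjusted p = 1.21e-14).

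NT5E is the enzyme that makes adenosine from AMP at the cell surface. Its counts were 4846, 5389 and 4788 in the libraries labelled siNC and 6994, 7096 and 7129 in those labelled siFBXL6. The siFBXL6 libraries were all high and differed little from each other. NT5E rose from 84.5 ± 2.39 to 117 ± 1.35 CPM, a log2 fold change of 0.47 (SE 0.0309, 95% interval 0.41 to 0.53, edgeR adjusted p = 1.63e-17). Its promoter window, chr6:85449833-85450132 on the plus strand of GRCh38.p14 from RefSeq, is shown for comparison with that of CD274, since NT5E had the largest increase after the PD-1 ligands.
NT5E: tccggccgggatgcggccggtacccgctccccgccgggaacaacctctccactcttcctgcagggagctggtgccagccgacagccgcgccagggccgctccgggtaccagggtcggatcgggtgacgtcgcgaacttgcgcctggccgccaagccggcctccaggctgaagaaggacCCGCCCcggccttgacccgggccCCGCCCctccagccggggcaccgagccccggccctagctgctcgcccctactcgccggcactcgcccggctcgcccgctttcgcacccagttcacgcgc
The capitals are 2 GC boxes read on the opposite strand (CCGCCC at -72 and -49). None of the other motifs searched matched in the window, which says only that these letters are not in it.

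ENTPD1 supplies the AMP that NT5E uses. It had 189, 164 and 154 counts in the libraries labelled siNC and 106, 140 and 149 in those labelled siFBXL6. Each siFBXL6 library was lower than each siNC library, but by raw counts siNC replicate 3 and siFBXL6 replicate 3 were close. ENTPD1 went from 2.86 ± 0.325 to 2.18 ± 0.379 CPM, a log2 fold change of -0.39 (SE 0.144, 95% interval -0.68 to -0.10, edgeR adjusted p = 0.0263). The call was lost with DESeq2 at about the same log2 fold change (-0.39, adjusted p = 0.107). It was also lost, with a smaller log2 fold change, without siNC replicate 1 (-0.29, edgeR adjusted p = 0.146) and without siFBXL6 replicate 1 (-0.25, edgeR adjusted p = 0.203), within a range of 0.0152 to 0.203 over the alternatives. ENTPD1 is also the member that shares most sequence with overlapping genes, 22.0% of its exon bases, the antisense gene ENTPD1-AS1 among them. The library kit was a stranded one, but whether the counting used strand is not given in the sources used here, so the ENTPD1 values are uncertain. ENTPD1-AS1 itself had 525, 535 and 462 counts in the siNC libraries and 428, 426 and 437 in the siFBXL6 libraries (log2 fold change -0.26, edgeR adjusted p = 0.00593).

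NT5E and ENTPD1 were thus called in opposite directions, within the limits given for ENTPD1. The ratio of NT5E to ENTPD1 on the TPM scale was 39.5, 50.6 and 47.8 in the libraries labelled siNC and 102, 78.0 and 73.6 in those labelled siFBXL6. The groups did not overlap (exact permutation p = 0.1), and siFBXL6 replicate 1, with the fewest ENTPD1 counts, stood highest.

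Of 23 other genes of extracellular ATP and adenosine, 20 were tested and 9 were called, 8 higher and 1 lower, with a median log2 fold change of 0.18. ENTPD3, a relative of ENTPD1 that also hydrolyzes ATP, went from 1.32 ± 0.222 to 2.68 ± 0.228 CPM (log2 fold change 1.02, SE 0.158, edgeR adjusted p = 5.25e-07). ALPL, an alkaline phosphatase that can also form adenosine, went from 0.639 ± 0.119 to 1.28 ± 0.23 CPM (log2 fold change 1.00, SE 0.226, edgeR adjusted p = 0.000298). The adenosine receptor gene ADORA2A went from 1.87 ± 0.362 to 3.00 ± 0.244 CPM (log2 fold change 0.68, SE 0.146, edgeR adjusted p = 0.000150). Per length they were far below NT5E. ENTPD3 had 1.13 ± 0.194 and 2.30 ± 0.197 TPM, above ENTPD1 in the libraries labelled siFBXL6, where ENTPD1 had 0.903 TPM. AK1, an adenylate kinase that interconverts adenine nucleotides, was the most abundant of the list at 71.1 ± 2.70 and 79.2 ± 2.03 TPM (log2 fold change 0.15, edgeR adjusted p = 0.000288). The single call in the lower direction was ADA, which removes adenosine and is named after its values were seen, at 9.27 ± 0.704 and 7.55 ± 0.114 CPM (log2 fold change -0.30, edgeR adjusted p = 0.00177).

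LGALS9 encodes galectin-9, a secreted lectin that binds HAVCR2 on T cells. It had 904, 819 and 919 counts in the libraries labelled siNC and 526, 541 and 517 in those labelled siFBXL6. The siFBXL6 libraries were all lower and closely spaced, and the siNC libraries spread more. LGALS9 went from 14.9 ± 1.45 to 8.74 ± 0.194 CPM, a log2 fold change of -0.77 (SE 0.0710, 95% interval -0.91 to -0.63, edgeR adjusted p = 1.16e-12). Of its exon bases, 5.15% are shared with AC015688.3, which had 815, 727 and 827 counts in the siNC libraries and 485, 491 and 507 in the siFBXL6 libraries. LGALS9 also has the near-identical copies LGALS9B and LGALS9C, each below the filter here, and its counts are uncertain to the extent that reads were split among them.

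The promoter of LGALS9, the member with the lowest log2 fold change, is shown because it also holds an ISRE-like match. The window is chr17:27630938-27631237 on the plus strand of GRCh38.p14, from RefSeq.
LGALS9: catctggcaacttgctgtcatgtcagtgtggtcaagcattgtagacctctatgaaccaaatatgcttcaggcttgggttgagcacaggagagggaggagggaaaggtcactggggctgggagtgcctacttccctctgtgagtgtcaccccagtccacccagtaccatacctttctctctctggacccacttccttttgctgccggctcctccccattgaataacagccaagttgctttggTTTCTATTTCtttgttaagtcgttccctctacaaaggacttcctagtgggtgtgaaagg
The capitals are a match to the ISRE-like motif on the opposite strand (TTTCTATTTC at -9). Of the members, 8 had a RefSeq promoter window, and CD274 and LGALS9 were the ones with an ISRE-like match. The part of the motif in the result of either gene was not tested.

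Of 13 other galectins, 4 were tested and 2 were called, both higher. LGALS8 was the most abundant per length at 21.1 ± 0.411 and 24.4 ± 0.251 TPM (log2 fold change 0.21, edgeR adjusted p = 3.17e-07). LGALS1, which encodes galectin-1, rose from 6.01 ± 0.484 to 8.94 ± 0.403 CPM (log2 fold change 0.57, SE 0.0833, edgeR adjusted p = 1.66e-07). The remaining tested galectins, LGALS2 and LGALS3, were not called, so LGALS9 was the one galectin called lower in the libraries labelled siFBXL6.

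**Figure D2:**
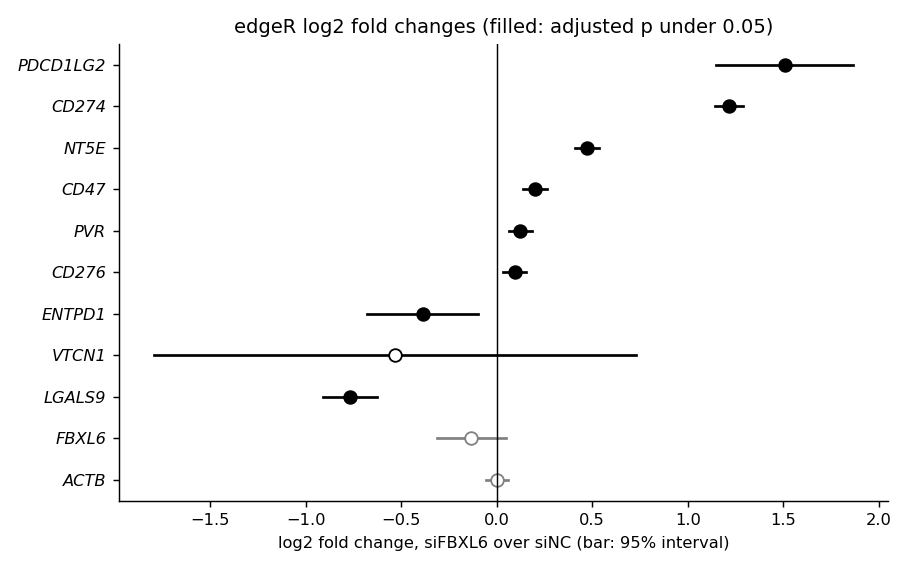
The horizontal axis is the edgeR log2 fold change (siFBXL6 over siNC) with its 95% interval for the 9 members, FBXL6 and ACTB; filled points have an adjusted p under 0.05. PDCD1LG2 (1.51) and CD274 (1.22) lie to the right of the other members, the point of LGALS9 (-0.77) lies furthest left, and the interval of VTCN1 runs from -1.80 to 0.73.

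Compared per exon length, PVR was the most abundant member. In TPM, the siNC libraries had the order PVR (130.4 ± 4.33), NT5E (53.8 ± 1.43), CD276 (47.5 ± 0.316), CD47 (38.0 ± 1.29), CD274 (21.3 ± 0.162), LGALS9 (7.53 ± 0.741), ENTPD1 (1.18 ± 0.138), PDCD1LG2 (1.00 ± 0.0677) and VTCN1 (0.147 ± 0.108). The siFBXL6 libraries had the order PVR (142 ± 2.31), NT5E (74.6 ± 1.05), CD276 (50.7 ± 0.134), CD274 (49.5 ± 0.858), CD47 (43.7 ± 0.693), LGALS9 (4.42 ± 0.117), PDCD1LG2 (2.86 ± 0.421), ENTPD1 (0.903 ± 0.159) and VTCN1 (0.0999 ± 0.0708). No neighbors in either order had overlapping ranges, though CD276 and CD274 nearly met in the siFBXL6 libraries, and ENTPD1 (lowest 1.10 TPM) and PDCD1LG2 (highest 1.08 TPM) nearly met in the siNC libraries. Between the groups CD274 and CD47 exchanged places, as did PDCD1LG2 and ENTPD1, the latter pair from near equality. The ratio of CD276 to CD274 in TPM fell from 2.23 ± 0.00269 to 1.02 ± 0.0203, and that of PVR to CD274 from 6.13 ± 0.158 to 2.87 ± 0.0108 (exact permutation p = 0.1 for each).

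**Figure D3:**
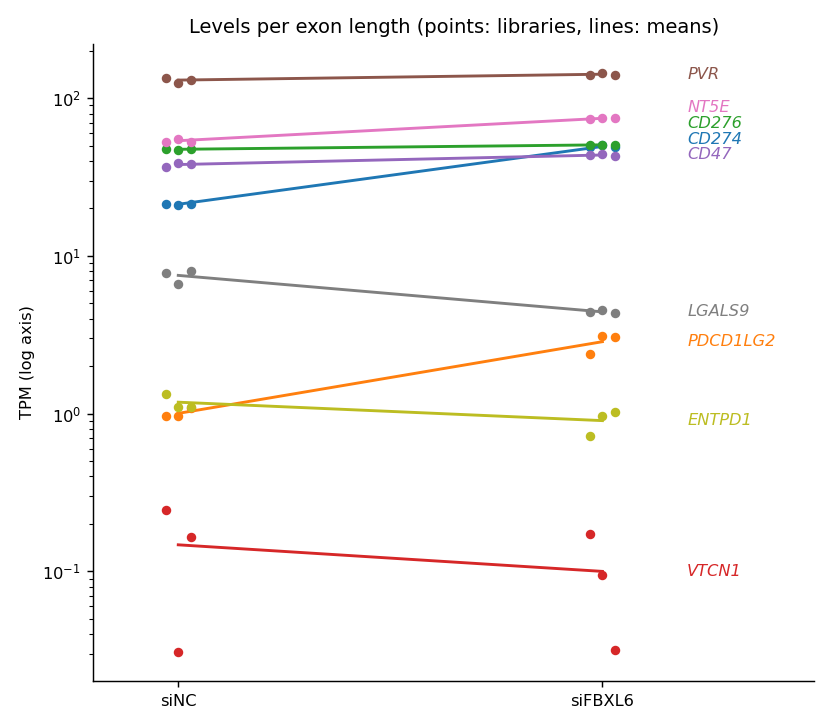
TPM on a log axis for each member in the 3 siNC and the 3 siFBXL6 libraries (points), with lines joining the group means. CD274 climbs from 21.3 to 49.5 TPM, next to CD276, and PDCD1LG2 crosses ENTPD1.

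CD274 and PDCD1LG2 are neighbors on chromosome 9 (GRCh38), CD274 at chr9:5450503-5470566 and PDCD1LG2 at chr9:5510570-5571254, both on the plus strand and 40003 bases apart. The other members lie elsewhere: CD276 at chr15:73683966-73714518, VTCN1 at chr1:117143587-117210960, CD47 at chr3:108043298-108091025, PVR at chr19:44643798-44663583, NT5E at chr6:85449584-85495791, LGALS9 at chr17:27629798-27649560 and ENTPD1 at chr10:95711779-95869695. Within 1 Mb of the pair, 23 genes were tested with the pair included, and 10 were called, 7 higher and 3 lower, beside 40.5% of all genes tested. The pair alone was at least 2-fold higher. PLGRKT, a plasminogen receptor gene whose span ends 12.6 kb from that of CD274, had 346, 499 and 437 counts in the libraries labelled siNC and 830, 814 and 822 in those labelled siFBXL6. All its siFBXL6 libraries were higher. It rose from 7.20 ± 1.14 to 13.6 ± 0.126 CPM, a log2 fold change of 0.92 (SE 0.0804, edgeR adjusted p = 1.38e-12). RIC1, the nearest gene tested beyond PDCD1LG2 at a distance of 57.8 kb and named after its values were seen, was at 34.5 ± 0.972 and 36.3 ± 1.54 CPM, and its adjusted p missed the threshold (log2 fold change 0.07, edgeR adjusted p = 0.181). The endopeptidase gene ERMP1, 194 kb away, rose from 22.4 ± 0.716 to 33.3 ± 0.964 CPM (log2 fold change 0.57, edgeR adjusted p = 2.21e-14).

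Of 21 genes listed as neighbors of CD274 on its chromosome arm, 17 were tested and 9 were called, 6 higher and 3 lower, with a median log2 fold change of 0.07. RANBP6 was the most abundant per length, at 37.2 ± 0.767 and 42.5 ± 0.517 TPM (log2 fold change 0.19, edgeR adjusted p = 7.66e-06). JAK2, the kinase of this region through which interferon gamma acts, was chosen after its values were seen and was at 17.5 ± 0.462 and 18.2 ± 0.493 CPM, with overlapping groups (log2 fold change 0.06, edgeR adjusted p = 0.414).

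**Figure D4:**
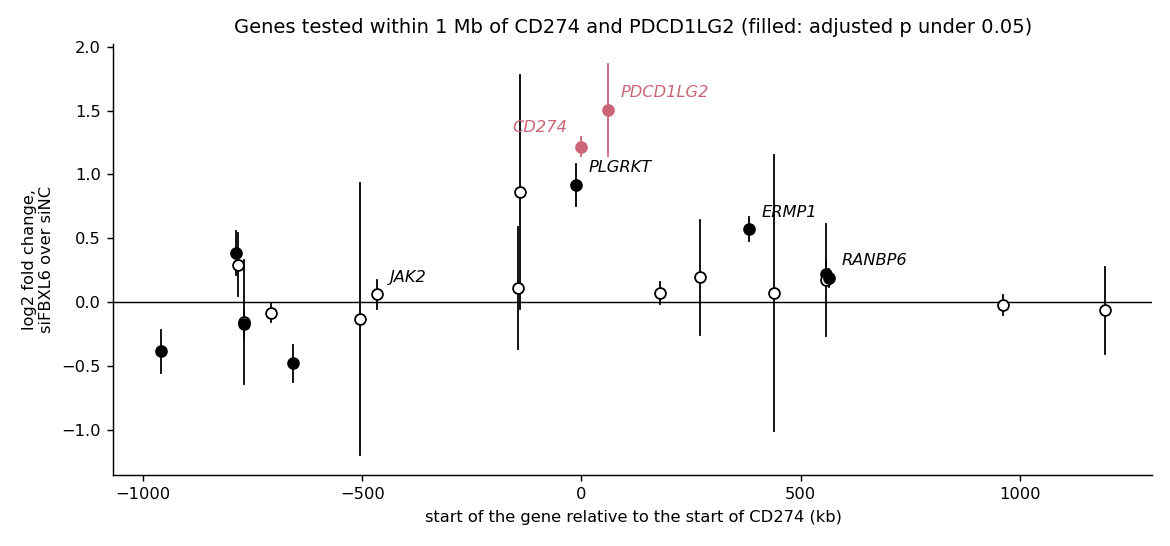
Each point is a gene tested within 1 Mb of CD274 and PDCD1LG2, placed by the distance of its start from that of CD274 (kb) and by its log2 fold change, with the 95% interval; filled points have an adjusted p under 0.05. CD274, PDCD1LG2 and PLGRKT stand highest among the called genes, and RIC1 and JAK2 lie near 0.

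Genes known to regulate PD-L1 were examined as a list of 29, all tested, of which 18 were called, 14 higher and 4 lower, with a median log2 fold change of 0.06. HIF1A, the hypoxia-inducible factor subunit, was the most abundant per length at 386 ± 1.97 and 362 ± 7.17 TPM (log2 fold change -0.10, edgeR adjusted p = 0.00479). SOCS1, an inhibitor of JAK signaling, went from 0.704 ± 0.119 to 1.23 ± 0.185 CPM (log2 fold change 0.81, SE 0.220, edgeR adjusted p = 0.00254). CMTM4, which like its relative CMTM6 protects PD-L1 protein from degradation, rose from 12.8 ± 0.572 to 20.4 ± 0.132 CPM (log2 fold change 0.67, SE 0.0574, edgeR adjusted p = 1.02e-13). B3GNT3, a glycosyltransferase that modifies PD-L1, rose from 3.23 ± 0.122 to 5.25 ± 0.534 CPM (log2 fold change 0.70, SE 0.109, edgeR adjusted p = 6.95e-07).

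Further regulators were singled out after their values were seen, as well known regulators of CD274 transcription or of its protein. IRF1, the interferon-induced factor that activates CD274, fell from 94.6 ± 0.991 to 78.2 ± 1.35 CPM (log2 fold change -0.27, edgeR adjusted p = 2.67e-10). CD274 was thus higher in the libraries in which IRF1 transcript was lower. NFKB1 rose from 47.5 ± 1.61 to 63.8 ± 2.06 CPM (log2 fold change 0.42, edgeR adjusted p = 1.32e-13), and MYC from 65.6 ± 2.79 to 78.1 ± 1.46 CPM (log2 fold change 0.25, edgeR adjusted p = 2.52e-08). CMTM6 rose from 48.8 ± 1.35 to 57.3 ± 1.23 CPM (log2 fold change 0.23, edgeR adjusted p = 6.51e-07). The part of these genes in the CD274 result was not tested.

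Of 14 other checkpoint ligands and inhibitory enzymes, 12 were tested and 6 were called, 3 in each direction. HMGB1, a nuclear protein that binds HAVCR2 once released, was by far the most abundant, at 921 ± 45.9 and 782 ± 9.23 TPM (log2 fold change -0.24, edgeR adjusted p = 4.02e-09). CEACAM1, an adhesion molecule and ligand of HAVCR2, rose from 11.5 ± 0.168 to 17.1 ± 0.934 CPM (log2 fold change 0.56, SE 0.0619, edgeR adjusted p = 1.66e-10). TDO2, an enzyme that degrades tryptophan, had 14, 16 and 16 counts in the siNC libraries and 6, 6 and 2 in the siFBXL6 libraries, with a log2 fold change of -1.72 (SE 0.536, edgeR adjusted p = 0.00720). Its fold rests on very few counts.

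The receptors for these ligands were mostly close to undetected. Of 16 checkpoint receptor genes, 8 were tested and 2 were called, both lower, and CTLA4 and ICOS had no count in any library, which for each gene allows up to 3 counts in a library. PDCD1, which encodes PD-1, averaged 0.0216 ± 0.0374 and 0.0111 ± 0.0192 CPM and fell below the filter. SIRPA, the receptor of CD47, was the most abundant per length by the mean over all 6 libraries, at 9.78 ± 0.499 and 10.6 ± 0.130 TPM (log2 fold change 0.11, edgeR adjusted p = 0.103). TREML2, a receptor found on myeloid cells, had 16, 12 and 18 counts in the siNC libraries and 4, 2 and 2 in the siFBXL6 libraries (log2 fold change -2.50, SE 0.603, edgeR adjusted p = 0.000512). The other called receptor, PVRIG, which binds NECTIN2 and was named after its values were seen, went from 7.19 ± 0.853 to 5.58 ± 0.150 CPM (log2 fold change -0.36, edgeR adjusted p = 0.00103). Its mean level per length in the libraries labelled siNC, 10.5 TPM, was above that of SIRPA.

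**Figure D5:**
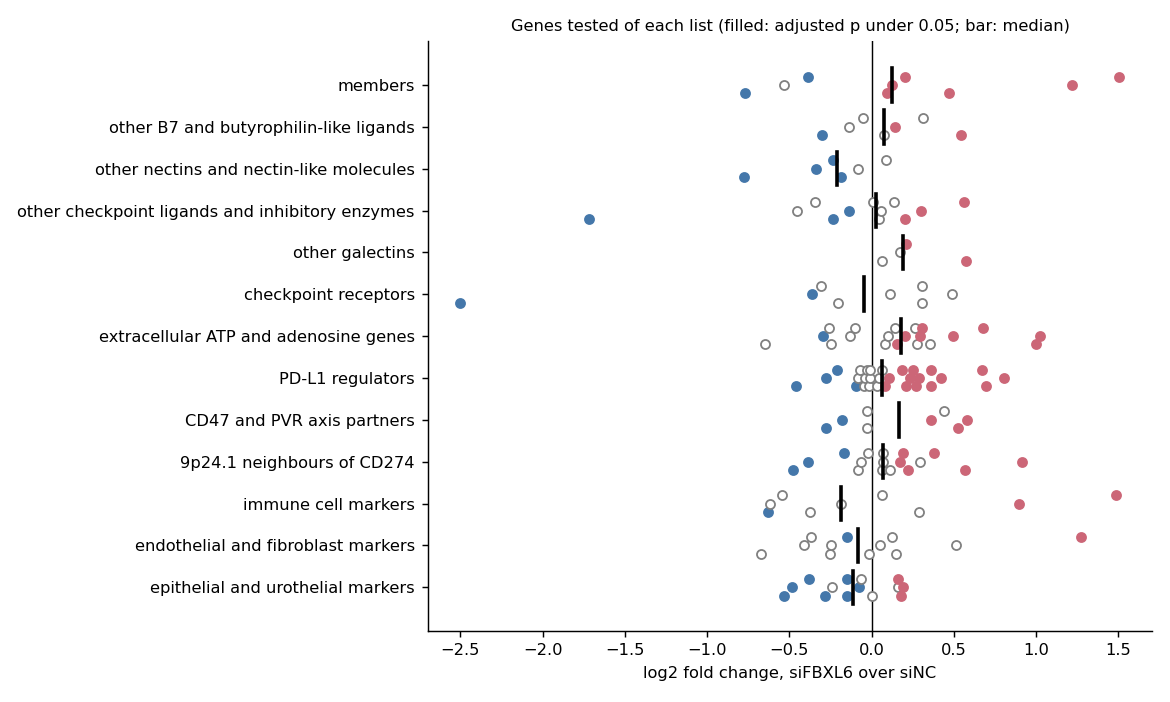
Each row is a gene list, each point the log2 fold change (siFBXL6 over siNC) of a tested gene, filled red or blue where the adjusted p was under 0.05 (higher or lower) and open where it was not; the black bar is the list's median. The called nectins all lie left of 0, and 8 of the 9 called genes of extracellular ATP and adenosine lie right of it.

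Cell type markers were examined because immune and stromal cells also express the members. T24 cells expressed the epithelial list strongly: of 18 epithelial and urothelial markers 14 were tested and 10 called, 3 higher and 7 lower. The list's summed level was 3588, 3444 and 3558 TPM in the libraries labelled siNC and 3288, 3292 and 3280.3 TPM in those labelled siFBXL6. KRT19 was the most abundant, at 879 ± 17.8 and 792 ± 5.75 TPM (log2 fold change -0.15, edgeR adjusted p = 1.74e-05), and the luminal factor GATA3 fell from 13.6 ± 0.706 to 9.37 ± 0.576 CPM (log2 fold change -0.53, edgeR adjusted p = 1.28e-08). Among the markers of mature urothelium, UPK1A had no count in any library, and KRT20, UPK1B and UPK3A were below the filter. UPK2, also on the list, passed the filter.

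Of 21 immune cell markers, 9 were tested and 3 were called, 2 higher and 1 lower. Their summed level was 12.9, 13.6 and 13.5 TPM in the libraries labelled siNC and 29.7, 28.0 and 30.3 TPM in those labelled siFBXL6. Most of that sum was CD68, a lysosomal protein abundant in macrophages, which rose from 8.83 ± 0.192 to 24.7 ± 1.13 TPM (log2 fold change 1.49, SE 0.0674, edgeR adjusted p = 2.02e-23). CSF1R, a macrophage growth factor receptor, went from 1.32 ± 0.258 to 2.45 ± 0.273 CPM (log2 fold change 0.90, edgeR adjusted p = 1.27e-05), and CD8A from 1.13 ± 0.0832 to 0.734 ± 0.0846 CPM (log2 fold change -0.63, edgeR adjusted p = 0.0172). PTPRC, present on nearly all leukocytes, passed the filter at a low level, 0.508 ± 0.166 and 0.331 ± 0.0988 CPM (log2 fold change -0.62, edgeR adjusted p = 0.153). Of the 21 markers, 12 were below the filter, among them the T cell gene CD3E and the myeloid genes ITGAM and TYROBP.

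Of 12 endothelial and fibroblast markers, all were tested and 2 were called, 1 in each direction. Their summed level was 13.8, 14.1 and 13.4 TPM in the libraries labelled siNC and 13.0, 12.8 and 12.5 TPM in those labelled siFBXL6. COL1A1, a collagen gene, was the most abundant at 10.3 ± 0.324 and 9.26 ± 0.190 TPM (log2 fold change -0.15, edgeR adjusted p = 0.00357). The endothelial adhesion gene PECAM1 rose from 0.573 ± 0.126 to 1.39 ± 0.365 CPM (log2 fold change 1.28, SE 0.234, edgeR adjusted p = 1.29e-05). The part of these markers in the members' results was not tested.

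Finally, the genes whose profiles over the 6 libraries lay closest to those of the 3 strongly changed members were listed, as a description, by root mean square distance in log2 CPM among 16192 genes of at least 1 CPM. For CD274 they were HEPHL1 (0.0171), DAPP1 (0.0278) and STC1 (0.0284), with log2 fold changes of 1.22, 1.19 and 1.23. For PDCD1LG2 they were PI3 (0.120), SLCO4A1 (0.126) and VNN1 (0.129), with log2 fold changes of 1.36, 1.52 and 1.39. For LGALS9 they were IGSF10 (0.0457), RP1-142L7.5 (0.0518) and NHSL2 (0.0539), with log2 fold changes of -0.76, -0.79 and -0.76. The distances for PDCD1LG2 were larger, at its lower counts. Neither PD-1 ligand was among the 3 closest genes of the other. The distance depends largely on the log2 fold change, 1.22 for CD274 and 1.51 for PDCD1LG2, so nothing is read from that.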

How the data were processed

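RNA from T24 cells was sequenced in 6 libraries made with a stranded mRNA kit, 3 per group. Label numbers were read as replicates, though those of siFBXL6 could instead name siRNAs. The authors deposited a table of raw counts per gene, made with featureCounts (Subread 1.5.1) on GRCh38. The sources differ on the steps before it: the submitters' processing notes name fastp 0.23.0 and STAR, and the paper's methods name Trimmomatic and HISAT2. Annotation release, the strand setting of the counting and the treatment of reads matching several genes are not given in the sources used here. The table's exon lengths, also as deposited by the authors, served for TPM. In R 4.3.3, edgeR 4.0.16 (with limma 3.58.1) filtered low counts by filterByExpr, computed TMM factors and ran the quasi-likelihood test, with condition as the only term. Calls were made at a Benjamini-Hochberg adjusted p under 0.05. Single genes were also compared with exact two-sided permutation tests over 20 arrangements. Alternatives were DESeq2 1.42.0, other scalings and filters, a replicate block and leaving out each library.

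The members and lists were chosen with earlier results of these data known. Genes named were the members, FBXL6, ACTB, each list's most abundant gene per length, list genes called with a log2 fold change of 0.5 or more in either direction, and the 3 closest profiles of each such member. Apart from LGALS2, LGALS3 and PTPRC, other genes are marked as chosen after their values were seen, or are named only as absent, below or above the filter, or sharing bases with a member. LGALS2 and LGALS3 were named as the remaining tested galectins and PTPRC as a general leukocyte marker, and none of them was called. Values of 1 listed gene are left out here. Older symbols were matched through RefSeq synonyms. Promoters came from RefSeq (GRCh38.p14). The steps were tested on simulated data.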

Additional observations from a re-analysis of the deposited data

How the results depend on the processing

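Of 115 values of single members under the 13 alternatives, 112 kept their direction and side of the threshold or, for VTCN1, were not called, and 3 lost the call, all of ENTPD1. The uncalled log2 fold change of VTCN1 ranged from -1.18 to 0.05, the latter without siNC replicate 1. It had no adjusted p from DESeq2 and fell below a filter of 10 counts in every library. With a change of at least 2-fold also required, 619 genes and 2 members were called in place of 8616 genes and 8 members. With DESeq2, 7015 genes and 7 members were called. Leaving out each library in turn gave 7534 to 8338 genes and 7 to 8 members. CD276 came closest to losing its call among the other members, at an edgeR adjusted p of 0.0486 without siFBXL6 replicate 1 (range 0.00716 to 0.0486). With the replicate number as a replicate block, 8400 genes and 8 members were called. Libraries with the same number did not deviate together (r across genes of -0.036, 0.013 and -0.011 for replicates 1, 2 and 3), so the groups share only a number and were not treated as paired. Scaling by library size alone moved the share of calls that were higher from 50.8% to 45.2%, put the median log2 fold change of all genes at -0.03 and turned no called member. Depth limits VTCN1, TDO2 and TREML2, which had few counts in any library.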
